A study of Mus musculus with 6 samples.

Results

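The genes of cholesterol and fatty acid synthesis were compared between aluminum-treated and control HT22 cells. The 33 genes were named as a list by pathway: 18 enzymes of sterol synthesis, 9 enzymes of fatty acid synthesis and 6 genes that regulate both branches or transport sterols. All 33 were found among the 21878 gene symbols of the deposited table, and all 33 passed the filter on low values, a mean of at least 0.1 FPKM (fragments per kilobase of transcript, scaled to library size). HT22 is an immortalized line derived from mouse hippocampal neurons, so the 3 libraries of each group are cultures of a single line. The control group had 3 libraries. The Al group had 3 libraries of cells exposed to 120 µmol/L aluminum maltolate for 24 h, a complex in which maltol keeps aluminum soluble in medium. All 6 were total input libraries of an m6A immunoprecipitation experiment, made with a strand-specific mRNA kit, and the immunoprecipitated libraries are not analysed here. The sample labels give the treated libraries a letter only, and the letter was read as the Al group from the 2-group design and the study's tables. The study describes a medium-only and a maltol control, and which of them was sequenced is not given in the sources used here, so aluminum and its maltol carrier cannot be told apart. The study calls the 3 libraries of a group independent biological replicates, and how the cultures were separated is not given in the sources used here, so the P values measure the spread between these libraries. In bulk RNA, fewer cells of a kind and less RNA per cell cannot be told apart.

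Cholesterol is built from acetyl-CoA through the mevalonate pathway to farnesyl diphosphate, then through squalene and lanosterol. Fatty acids are built from the same acetyl-CoA by acetyl-CoA carboxylase and fatty acid synthase, and are then elongated and desaturated. Both branches are driven by the sterol regulatory element-binding proteins (SREBPs): SREBP2, from Srebf2, acts mainly on sterol genes, and SREBP1, from Srebf1, mainly on fatty acid genes. SCAP carries SREBPs from the endoplasmic reticulum to the Golgi for cleavage, and the INSIG proteins hold SCAP back when sterols are plentiful. In the brain, cholesterol is made locally because plasma lipoproteins do not cross the blood-brain barrier, and neurons take up part of theirs from glia.

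Sterol genes are known to be switched on through short promoter elements, so the promoters of the genes that the results turn on are printed first. They are RefSeq promoters on GRCm38.p6, from 250 bases before to 50 bases after each annotated start. The table held a promoter for 26 of the 33 genes, and it held none for Fdps, Fdft1, Sqle, Scd1, Scd2, Fads1 and Stard4. Each is printed 5′ to 3′ on the strand of the gene. Capitals mark every CCAAT box, the letters CCAAT on either strand, and in Hmgcs1 also the sterol regulatory element TCACCCCAC. Hmgcs1, Idi1, Cyp51 and Hsd17b7 are sterol genes that were higher in the Al group. Insig1 and Insig2 are the pair of SREBP inhibitors that moved apart. Only the first listed promoter of Insig2 is printed, and its other listed promoters each held 0 CCAAT boxes.
Hmgcs1, chr13:119690101-119690400, plus strand: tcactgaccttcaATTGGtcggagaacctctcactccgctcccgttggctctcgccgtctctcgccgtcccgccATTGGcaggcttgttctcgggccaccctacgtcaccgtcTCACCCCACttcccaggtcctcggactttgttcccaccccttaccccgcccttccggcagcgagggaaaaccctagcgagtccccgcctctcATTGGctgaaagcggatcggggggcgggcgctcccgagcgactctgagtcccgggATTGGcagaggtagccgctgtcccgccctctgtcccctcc
Idi1, chr13:8885356-8885655, plus strand: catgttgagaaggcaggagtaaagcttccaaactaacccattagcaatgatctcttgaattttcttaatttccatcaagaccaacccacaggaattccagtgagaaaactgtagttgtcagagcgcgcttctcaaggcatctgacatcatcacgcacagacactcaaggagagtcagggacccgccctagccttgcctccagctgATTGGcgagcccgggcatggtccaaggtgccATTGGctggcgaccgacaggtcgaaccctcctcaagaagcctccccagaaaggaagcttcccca
Cyp51, chr5:4104648-4104947, minus strand: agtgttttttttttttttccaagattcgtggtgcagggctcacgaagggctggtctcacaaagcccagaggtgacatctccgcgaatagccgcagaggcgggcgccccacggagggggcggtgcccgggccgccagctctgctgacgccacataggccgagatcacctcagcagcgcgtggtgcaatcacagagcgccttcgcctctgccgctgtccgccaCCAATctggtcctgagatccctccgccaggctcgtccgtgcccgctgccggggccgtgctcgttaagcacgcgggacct
Hsd17b7, chr1:169969156-169969455, minus strand: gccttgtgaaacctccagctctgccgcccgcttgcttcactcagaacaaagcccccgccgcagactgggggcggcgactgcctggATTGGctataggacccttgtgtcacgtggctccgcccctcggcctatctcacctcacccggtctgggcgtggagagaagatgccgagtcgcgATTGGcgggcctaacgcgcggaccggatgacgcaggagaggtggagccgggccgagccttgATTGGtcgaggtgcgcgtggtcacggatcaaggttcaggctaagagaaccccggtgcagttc
Insig1, chr5:28071162-28071461, plus strand: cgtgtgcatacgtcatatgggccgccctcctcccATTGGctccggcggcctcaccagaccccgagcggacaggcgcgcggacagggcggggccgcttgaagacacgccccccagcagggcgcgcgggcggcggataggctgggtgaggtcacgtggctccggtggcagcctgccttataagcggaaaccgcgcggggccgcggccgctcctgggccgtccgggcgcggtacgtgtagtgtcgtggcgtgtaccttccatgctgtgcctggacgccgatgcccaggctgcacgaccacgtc
Insig2, the first of 3 listed promoters, chr1:121332540-121332839, minus strand: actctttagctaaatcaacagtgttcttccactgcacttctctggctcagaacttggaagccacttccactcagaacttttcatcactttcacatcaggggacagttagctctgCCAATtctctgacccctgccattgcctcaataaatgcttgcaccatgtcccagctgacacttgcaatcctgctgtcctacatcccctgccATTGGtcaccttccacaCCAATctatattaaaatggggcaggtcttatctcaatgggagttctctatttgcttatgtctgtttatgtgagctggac

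The choice of genes made no use of promoter letters. The CCAAT box, which binds the factor NF-Y, occurred in a promoter of 14 of the 15 sterol genes with one (93.3%), against 43.3% of the 9785 tested genes with a promoter. Counted by promoter, it was in 77.8% of the 18 sterol gene promoters, in 38.1% of the promoters of tested genes and in 37.4% of all 32851 promoters of that length. The GC box GGGCGG, which binds Sp1 family factors, was in 14 of the 15 sterol genes (93.3%), against 66.8% of tested genes. By promoter it was in 83.3% of those of sterol genes, against 60.6% of those of tested genes and 35.7% of all promoters. The sterol regulatory element was searched for as TCACNCCAC and was found in Hmgcs1 alone among the 26 genes, starting 137 bases before the start (position -137). It was in 1.43% of tested genes and in 1.24% of all promoters. The E-box CACGTG was in 3 of the 15 sterol genes (20%), against 11.3% of tested genes. By promoter it was in 16.7% of those of sterol genes, against 9.56% of those of tested genes and 7.15% of all promoters. Of the 6 fatty acid genes with a promoter, 3 had a CCAAT box, 3 a GC box and 0 an E-box. Acat2 was the sterol gene with no CCAAT box in this window, and it was among the genes higher in the Al group. All motifs were read on both strands, and no 2 different motifs overlapped in these promoters, while in Fasn a CCAAT box on either strand shared bases with the other. A match describes letters and not binding.

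The libraries held 37902258 to 44374068 reads on genes in the control group and 21047144 to 26572497 in the Al group, so every Al library was shallower than every control library. The lowest count behind any value of the 33 genes was 118 reads. Of 10 neuronal markers, 8 stayed under 1 FPKM in all 6 libraries, and Nefm and Snap25 were listed at 0 in all of them, while the proliferation genes Mki67, Top2a, Ccnb1 and Cdk1 were all well expressed. The neuronal markers that went above 1 FPKM were Tubb3, at 2.44 to 5.54 FPKM, and Eno2, at 0.868 to 3.69. The line as sequenced thus held most of the 10 listed neuronal markers at low levels or at 0. The 5 astrocyte markers summed to 14.0 to 23.3 FPKM in the control group and 1.56 to 2.70 FPKM in the Al group, nearly all of it from Slc1a3, with Aqp4 listed at 0 and Gfap at no more than 0.101 FPKM in any library. The 6 microglia markers summed to 39.4 to 49.0 FPKM in control and 22.3 to 72.6 in Al, nearly all of it from Tmem119, with P2ry12 listed at 0, and the 6 oligodendrocyte markers to 0.2005 to 0.365 and 0.404 to 1.31 FPKM. Their part in the results below was not tested.

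Of the 33 genes, 10 were higher and 4 lower in the Al group (Benjamini-Hochberg adjusted P under 0.05 from limma over all 12889 genes tested, and an absolute log2 fold change over 0.58). Among all genes tested, 25.5% were called higher, 23.7% lower and 49.2% in either direction, and the share called among the 33 genes, 42.4%, was no larger. In the sterol branch 8 of 18 genes (44.4%) were higher and 0 were lower, with a median log2 fold change of 0.53 against 0.03 for all genes tested. For that count of 0, 2 genes were lower at an unadjusted P under 0.05 with no limit on the fold (Mvk and Tm7sf2), and limma-voom on the recovered reads also called 0. The other library scalings given below, deposited FPKM, TPM and quantile normalization, called 3, 6 and 1 sterol genes lower and 5, 4 and 6 higher. Of the 9 fatty acid genes, 0 were higher and 2 lower, a share of 22.2% that is close to the background, with a median of -0.04. For that count of 0, 3 genes were higher at an unadjusted P under 0.05 with no limit on the fold (Acly, Elovl6 and Scd1), and limma-voom again called 0. Deposited FPKM, TPM and quantile normalization called 4, 5 and 5 fatty acid genes lower, where 5321, 6734 and 3009 of all 12889 genes were lower. The groups did not overlap in 26 of the 33 genes (78.8%), against 68.1% of all genes tested. Levels are given as scaled FPKM, the deposited FPKM divided by a size factor per library, and fold changes are on the scale of log2(scaled FPKM + 0.1).

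**Figure D1:**
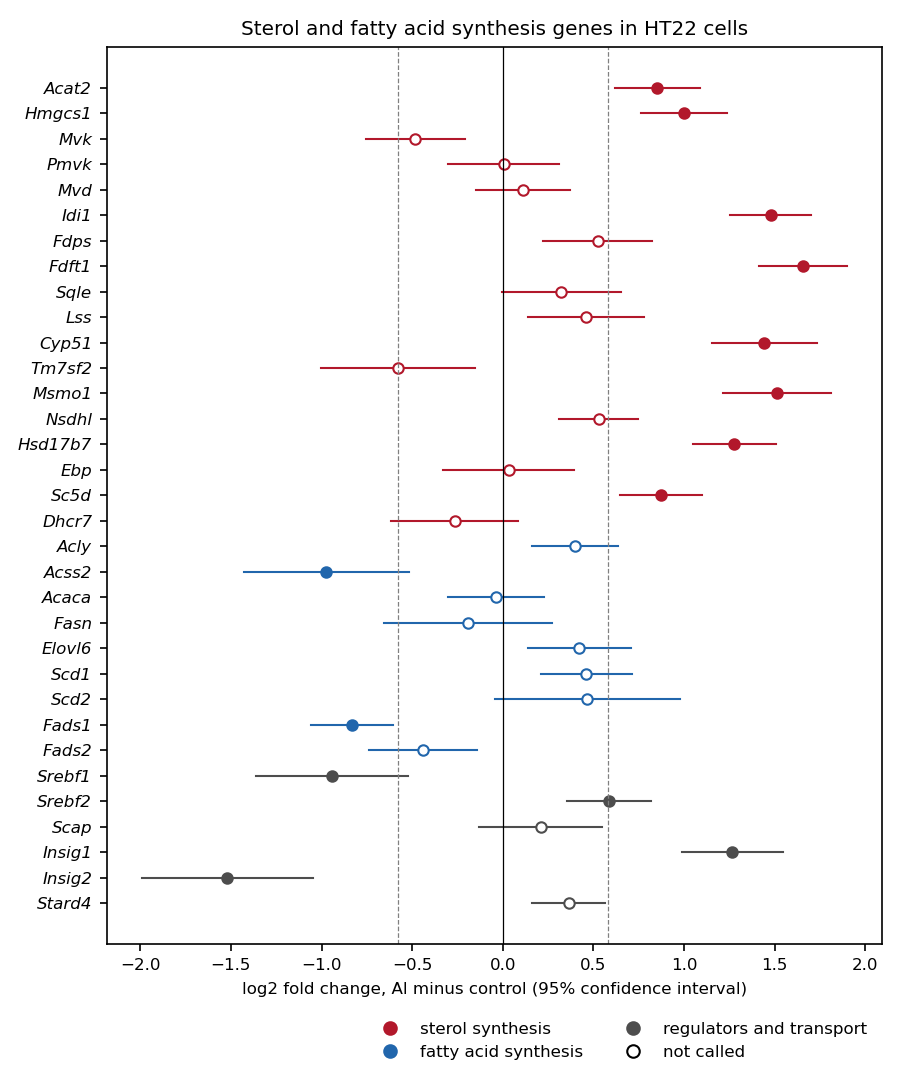
Log2 fold change, Al minus control, of the 33 genes with its 95% confidence interval from limma (3 libraries per group); filled points are called, open points are not, and dashed lines stand at -0.58 and 0.58. Filled sterol genes all lie to the right, from Acat2 at 0.85 to Fdft1 at 1.66, and the filled fatty acid genes Acss2 and Fads1 lie to the left.

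The directions depended on how the libraries were put on a common scale. The median of all genes was 0.03 after median-of-ratios scaling, -0.43 for FPKM as deposited, -0.72 for TPM and -0.03 after quantile normalization. Calls in the higher direction made up 51.9%, 24.6%, 14.5% and 48.0% of all calls under these 4 scalings. Of the 12889 genes tested, 3291, 1736, 1141 and 2777 were called higher and 3053, 5321, 6734 and 3009 lower, in the same order. Counts of listed genes under a scaling are to be read against these. Read against the median of all genes, the sterol median stood higher by 0.50, 0.47, 0.46 and 0.20, and the fatty acid median differed by -0.07, -0.09, -0.11 and -0.68. Of the 33 genes, 8 were called the same way under all 4 scalings: Idi1, Fdft1, Cyp51 and Msmo1 higher, and Acss2, Fads1, Srebf1 and Insig2 lower. The sign of the fold change was the same under all 4 in 19 genes and not in the other 14, and those 14 are marked below by the values they took. The share of all genes tested that met either condition is not given here, so neither count is set against a background.

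**Figure D2:**
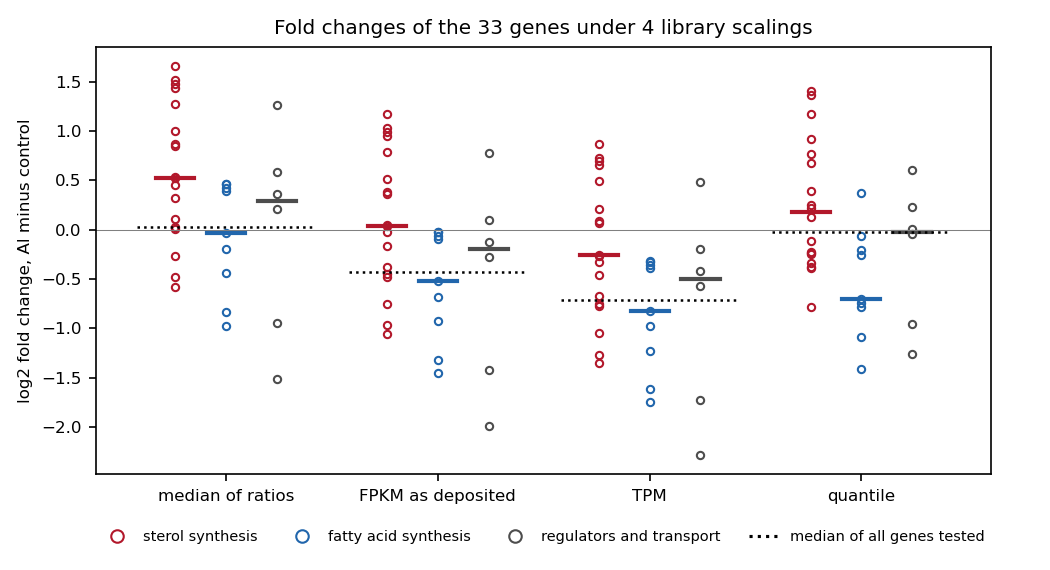
Log2 fold changes of the 33 genes (open points), with the median of each group (bars) and of all genes tested (dotted line), under median-of-ratios scaling, FPKM as deposited, TPM and quantile normalization. The sterol median stands above the median of all genes under each scaling, by 0.20 to 0.50, and the whole cloud shifts down for deposited FPKM and TPM.

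Of the 7 genes from acetyl-CoA to farnesyl diphosphate, 3 rose (42.9%, against 25.5% of all genes): Acat2, Hmgcs1 and Idi1. Acat2, the cytosolic thiolase that joins 2 acetyl-CoA, had 96.0, 87.7 and 90.1 scaled FPKM in control and 162, 162 and 171 in Al. Hmgcs1, the HMG-CoA synthase that takes the next step, had 90.7, 88.5 and 82.8 in control and 182, 168 and 174 in Al. Idi1, the isomerase that makes dimethylallyl diphosphate, had 12.5, 11.3 and 11.6 in control and 33.8, 30.3 and 35.0 in Al. In all 3 genes every Al library lay above every control library. The log2 fold changes were 0.85 ± 0.10 (SE) for Acat2, 1.0006 ± 0.10 for Hmgcs1 and 1.48 ± 0.10 for Idi1 (adjusted P = 0.000159, 7.51e-05 and 1.26e-05). Idi1 stayed called under every scaling, whereas Acat2 and Hmgcs1 kept their direction but lost the call for deposited FPKM (0.36 and 0.51), TPM (0.06 and 0.21) and quantile normalization (0.22 and 0.39). Acat2 has a copy, Acat3, that matches its transcript at 98.3% identity over 64.0% of its length, and Acat3 itself went from 0.833 to 3.83 scaled FPKM, so reads may have been split between them. Hmgcs1 shares 557 exon bases with the antisense transcript Gm48342.

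The other 4 genes of the mevalonate stretch were not called. Mvk, the mevalonate kinase, had 47.7, 43.6 and 40.1 scaled FPKM in control and 35.8, 28.0 and 30.4 in Al, so its groups did not overlap and the Al group was the lower. Its log2 fold change of -0.48 (95% confidence interval -0.76 to -0.21, adjusted P = 0.00733) fell short of the fold threshold here, and it was called lower for deposited FPKM, TPM and quantile normalization. Pmvk, the next kinase, and Mvd, the decarboxylase after it, overlapped between the groups, with intervals of -0.30 to 0.31 and -0.15 to 0.37, and both took negative signs under the other 3 scalings and were called lower for TPM (-0.78 and -0.68). Fdps, the farnesyl diphosphate synthase, was the most abundant sterol gene, at 271, 284 and 263 in control and 388, 382 and 405 in Al. Every Al library was above every control library, and its log2 fold change was 0.52 (interval 0.22 to 0.82), with values of -0.26 for TPM and -0.24 after quantile normalization. Fdps has 5 processed pseudogenes of 91.1% to 98.9% identity and Idi1 has 3 of 90.4% to 100%, so the counts of both are uncertain. Fdps also shares 1124 exon bases on the same strand with Gm43738.

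Of the 3 enzymes from farnesyl diphosphate to lanosterol, Fdft1 alone was called. Fdft1, the squalene synthase that commits farnesyl diphosphate to sterols, had 17.7, 17.3 and 17.1 scaled FPKM in control and 57.6, 59.7 and 48.1 in Al. The groups were far apart, and its log2 fold change of 1.66 ± 0.11 (adjusted P = 1.09e-05) was the largest of the 33 genes. Fdft1 lies on chr14:63145150-63179578 (GRCm38, GENCODE, minus strand), and 774 of its exon bases are shared with Ctsb on the opposite strand. The gene length behind its deposited FPKM came out at 6712 bases, against 4227 exon bases in this gene model. The shared stretch in the authors' gene model may thus differ. Ctsb, which encodes the lysosomal protease cathepsin B, went from 58.6 ± 5.75 to 147 ± 9.85 scaled FPKM (SD, n = 3), a log2 fold change of 1.33. Whether the counting used strand is not given in the sources used here, so part of the Fdft1 signal and that of Ctsb cannot be told apart. A processed pseudogene, Gm6781, also matches Fdft1 at 97.4% identity.

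Sqle, the squalene epoxidase, and Lss, the lanosterol synthase, lay above control in all 3 Al libraries without reaching the call. Sqle had 148, 145 and 152 in control and 174, 163 and 226 in Al, and Lss had 25.9, 26.3 and 23.1 in control and 30.0, 32.0 and 42.6 in Al. In both the third Al library was the highest. The log2 fold changes were 0.32 (adjusted P = 0.0794) and 0.46 (adjusted P = 0.0195), with -0.16 and -0.03 for deposited FPKM, -0.46 and -0.33 for TPM, and -0.34 and 0.25 after quantile normalization.

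Of the 8 genes from lanosterol to cholesterol, 4 rose (50%, against 25.5% of all genes): Cyp51, Msmo1, Hsd17b7 and Sc5d. Cyp51, the lanosterol demethylase, had 94.1, 105 and 105 scaled FPKM in control and 264, 253 and 311 in Al. Msmo1, the methylsterol oxidase that acts after it, had 75.1, 78.4 and 74.1 in control and 190, 211 and 254 in Al. The 2 genes moved by almost the same amount, 1.44 ± 0.13 and 1.51 ± 0.13 on the log2 scale (adjusted P = 3.47e-05 and 3.14e-05), and both were called under all 4 scalings. Cyp51 shares 166 exon bases on the opposite strand with Akap9, which went from 8.18 to 6.35 scaled FPKM. Hsd17b7, the keto reductase of the same demethylation complex, had 13.7, 12.2 and 11.5 in control and 31.2, 30.1 and 29.5 in Al. Its log2 fold change was 1.28 ± 0.10 (adjusted P = 2.16e-05), and 0.49 for TPM, where it was not called. Sc5d, the sterol desaturase near the end of the pathway, had 20.3, 19.5 and 20.6 in control and 36.0, 34.3 and 40.8 in Al. Its log2 fold change was 0.87 ± 0.10 (adjusted P = 0.000116), and it was not called for deposited FPKM (0.39) or TPM (0.09).

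The other 4 late genes were not called. Nsdhl, the sterol decarboxylase that works between Msmo1 and Hsd17b7, had 45.6, 42.5 and 43.7 in control and 60.0, 62.2 and 68.5 in Al. Its groups were apart, and its log2 fold change was 0.53 (interval 0.31 to 0.75), with 0.04 for deposited FPKM and -0.26 for TPM. Ebp, the sterol isomerase, overlapped between groups at 32.97, 30.3 and 34.7 in control and 41.8, 33.5 and 26.5 in Al. Dhcr7, which makes cholesterol from 7-dehydrocholesterol, also overlapped, at 24.4, 19.3 and 20.02 in control and 16.2, 15.3 and 21.8 in Al. The intervals of their log2 fold changes were -0.33 to 0.39 and -0.62 to 0.08, and Dhcr7 was called lower for deposited FPKM and TPM, as Ebp was for TPM. Tm7sf2, a sterol reductase whose role can also be filled by Lbr, was the least abundant sterol gene. It had 8.76, 8.80 and 5.64 in control and 5.14, 4.50 and 5.55 in Al, and the third control library came close to the Al group. Its log2 fold change of -0.58 (interval -1.005 to -0.15) stood just short of the fold threshold, and it passed without control library 3 (-0.80), without Al library 1 (-0.59) and without Al library 3 (-0.64). Tm7sf2 was called lower for deposited FPKM (-1.06) and TPM (-1.35), and not after quantile normalization (-0.38). Tm7sf2 shares 532 exon bases on the same strand with Vps51, which went from 16.6 to 9.82 scaled FPKM.

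**Figure D3:**
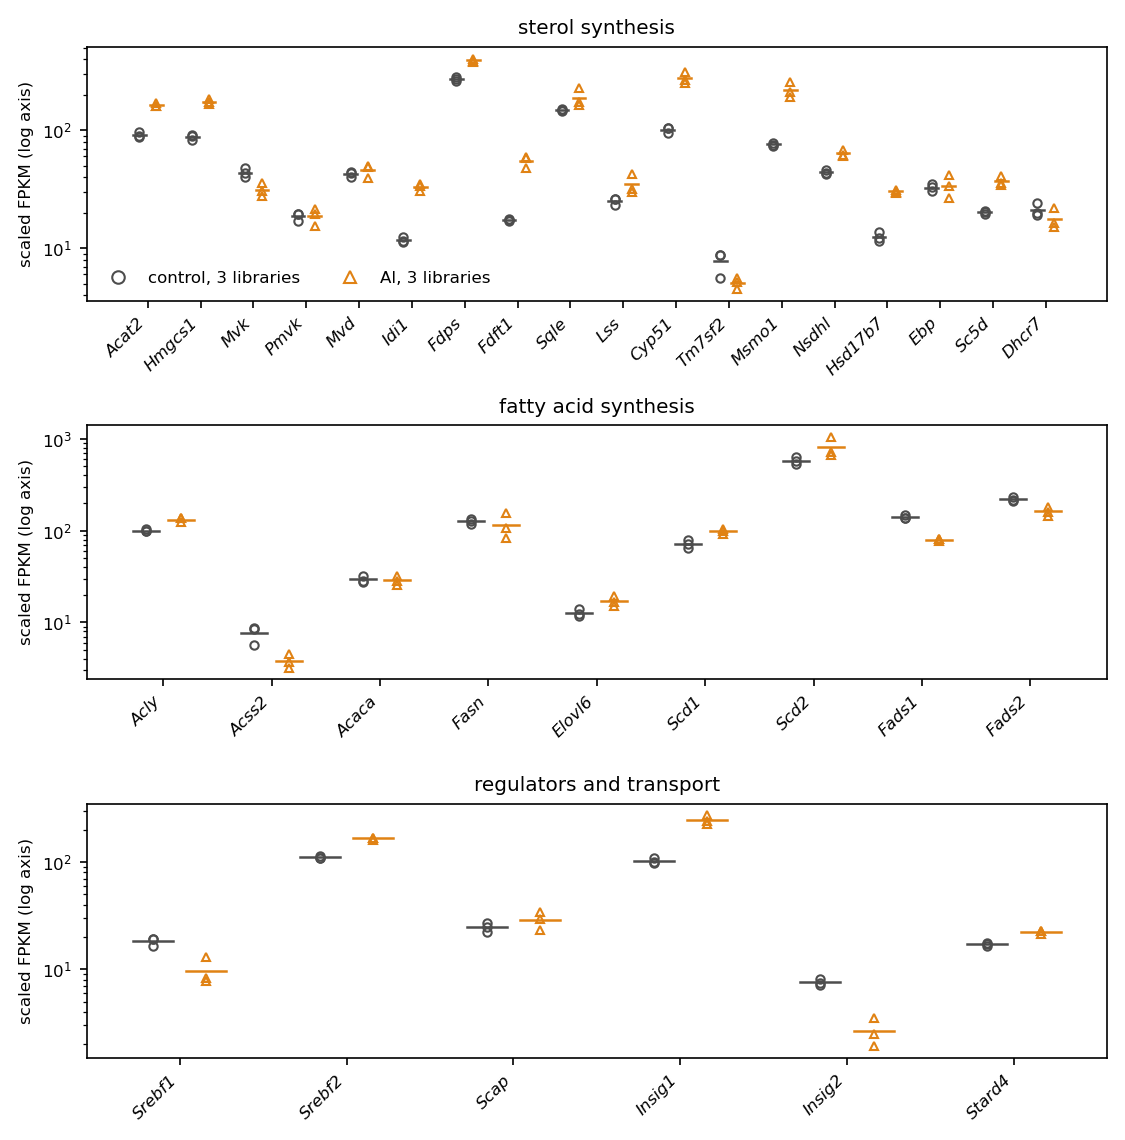
Scaled FPKM of each gene in each library on a log axis (circles, control; triangles, Al; 3 libraries per group; the bars are means), in separate panels for the sterol, fatty acid and regulator genes. Triangles lie clear above circles for Idi1, Fdft1, Cyp51, Msmo1 and Hsd17b7 and clear below them for Fads1 and Insig2, while the triangles of Fasn span its circles.

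In the fatty acid branch the 2 called genes were both lower: Acss2, which makes acetyl-CoA from free acetate, and Fads1, a front-end desaturase of polyunsaturated fatty acids. Acss2 had 8.75, 8.44 and 5.62 scaled FPKM in control and 3.67, 3.21 and 4.48 in Al. Fads1 had 147, 138 and 138 in control and 81.1, 76.3 and 80.2 in Al. Neither gene overlapped between the groups, and both were called lower under all 4 scalings. The log2 fold changes were -0.97 ± 0.20 for Acss2 and -0.83 ± 0.10 for Fads1 (adjusted P = 0.00279 and 0.000146). Acss2 shares 395 exon bases with Gss and 197 with Ggt7, both on the opposite strand. Fads2, the desaturase that acts before Fads1 and lies next to it on chromosome 19, had 232, 215 and 210 in control and 183, 158 and 145 in Al. Its groups were apart too, with a log2 fold change of -0.44 (interval -0.74 to -0.14, adjusted P = 0.0170) that did not reach the call, and it was called lower under the other 3 scalings.

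The central enzymes of the branch were not called after median-of-ratios scaling. Acly, which makes cytosolic acetyl-CoA from citrate for both branches, had 103, 98.1 and 98.7 in control and 123, 137 and 136 in Al. Its groups were apart at a log2 fold change of 0.40 (interval 0.16 to 0.63), with -0.09 for deposited FPKM, -0.39 for TPM and -0.20 after quantile normalization. Acaca, the acetyl-CoA carboxylase that sets the pace of fatty acid synthesis, overlapped between the groups, with an interval of -0.30 to 0.23, was called lower for TPM (-0.82), and has a close copy, since a processed pseudogene, Gm5182, matches it at 99.2% identity. Fasn, the fatty acid synthase, had 134, 118 and 127 in control and 83.1, 106 and 154 in Al. Its Al libraries fell on both sides of the control libraries, and the interval of its log2 fold change, -0.66 to 0.27, spanned both directions. Without Al library 1 the sign turned, at 0.02, and for deposited FPKM, TPM and quantile normalization Fasn was called lower (-0.68, -0.98 and -0.78).

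The elongase and the stearoyl-CoA desaturases lay above control in all 3 Al libraries. Elovl6, which extends palmitate, had 13.9, 12.3 and 11.8 in control and 15.0, 16.7 and 19.4 in Al. Scd1 had 78.2, 71.8 and 65.0 in control and 92.7, 99.2 and 104 in Al. Scd2, the most abundant of all 33 genes, had 629, 568 and 533 in control and 660, 725 and 1048 in Al. In each of these genes the third Al library was the highest, and Scd2 rested on it most. The log2 fold changes were 0.42, 0.46 and 0.47, none was called, and all turned negative for deposited FPKM (-0.06, -0.03 and -0.02). After quantile normalization Scd2 was called lower at -0.71. Scd1 shares 91.5% identity with Scd3 over part of its transcript.

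Of the 6 genes of regulation and transport, 2 were higher and 2 lower (33.3% each, against 25.5% and 23.7% of all genes), with 1 of each in the SREBP pair and in the INSIG pair. Srebf2, which encodes SREBP2, had 115, 108 and 108 scaled FPKM in control and 168, 162 and 167 in Al. Srebf1, which encodes SREBP1, had 19.2, 16.5 and 19.0 in control and 7.84, 8.25 and 12.9 in Al. Neither overlapped between the groups. The log2 fold change of Srebf1 was -0.94 ± 0.18 (adjusted P = 0.00216) and was called lower under all 4 scalings. That of Srebf2 was 0.59 ± 0.10 (adjusted P = 0.00116), just past the fold threshold, with 0.10 for deposited FPKM, -0.20 for TPM and -0.05 after quantile normalization, and it fell to 0.56 without control library 2 or 3. Srebf1 shares 109 exon bases on the opposite strand with Rai1, which went from 16.3 to 10.5 scaled FPKM. The ratio of Srebf2 to Srebf1 within a library is unaffected by a size factor or by TPM, though not by quantile normalization. The Srebf2 to Srebf1 ratio was 5.96, 6.57 and 5.68 in control and 21.5, 19.6 and 12.9 in Al. Every Al library thus had a higher ratio than every control library, and the third Al library was the nearest to control.

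The INSIG pair moved in opposite directions. Insig1, itself a target of SREBP2, had 97.5, 109 and 99.8 in control and 226, 241 and 272 in Al. Insig2, which is regulated apart from sterol supply, had 7.21, 7.41 and 8.05 in control and 1.92, 2.49 and 3.54 in Al. Both genes separated the groups fully. On the log2 scale Insig1 rose by 1.27 ± 0.12 (adjusted P = 5.01e-05), and lost the call for TPM alone among the 4 scalings, at 0.48. Insig2 fell by 1.52 ± 0.21 on the log2 scale (adjusted P = 0.000306), the lowest value among the 33 genes, and was called lower under all 4 scalings. The Insig1 to Insig2 ratio within a library was 13.5, 14.7 and 12.4 in control and 118, 96.9 and 76.8 in Al. Insig1 was thus the major form in both groups, and no library of one group came near those of the other.

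Scap, the escort of the SREBPs, overlapped between the groups at 27.1, 22.5 and 24.5 in control and 29.6, 34.0 and 23.0 in Al. The interval of its log2 fold change ran from -0.13 to 0.55, and Scap shares 985 exon bases on the opposite strand with the transcript 5830462I19Rik. Stard4, a carrier of cholesterol between membranes, had 17.7, 16.6 and 17.3 in control and 22.6, 22.6 and 21.3 in Al. Its groups were apart, at 0.36 (interval 0.16 to 0.57), with -0.12 for deposited FPKM and -0.42 for TPM.

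Within a library, the median log2(FPKM + 0.1) of the sterol genes lay below that of the fatty acid genes, with differences of -1.50, -1.45 and -1.40 in control and of -1.03, -1.26 and -1.19 in Al. The mean gap was -1.45 ± 0.05 (SD, n = 3) in control and -1.16 ± 0.12 in Al, so the sterol genes came closer to the fatty acid genes by 0.29 in the Al group. All 3 Al libraries lay above all 3 control libraries, and no test was made of this summary over chosen genes.

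**Figure D4:**
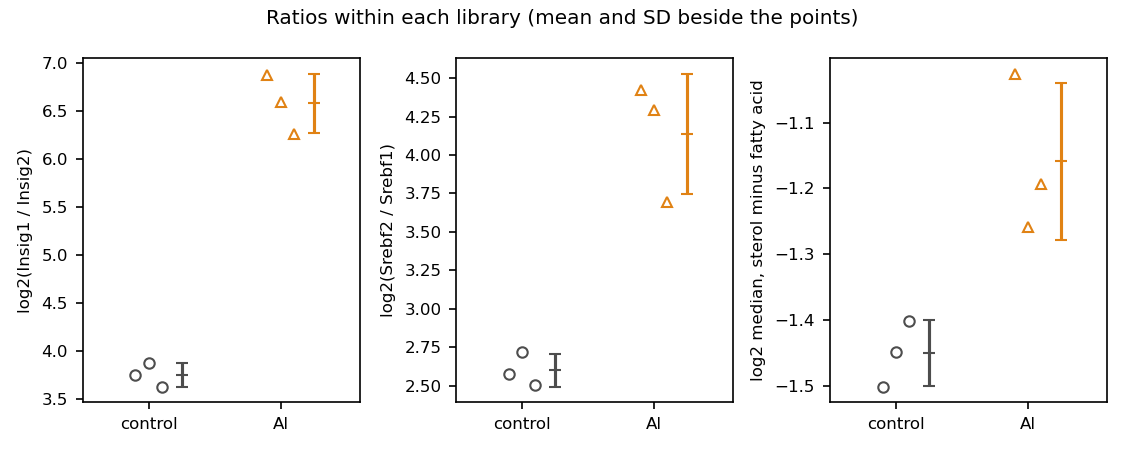
Ratios formed within each library on a log2 scale for control and Al (3 libraries each, with the mean and SD beside them): Insig1 over Insig2, Srebf2 over Srebf1, and the median of the sterol genes minus that of the fatty acid genes. The Al points lie above the control points in all 3 panels, and the axes do not start at 0.

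The median coefficient of variation of the 33 genes was 5.92% in control and 11.7% in Al, against 8.97% and 16.9% over all genes tested. The third Al library was the highest of the Al libraries in 21 of the 33 genes (63.6%), against 42.2% of all genes tested, and it had the fewest reads on genes. By level in control, Scd2 at 577 ± 48.7, Fdps at 272 ± 10.6 and Fads2 at 219 ± 11.3 scaled FPKM led the list. Tm7sf2, Acss2 and Insig2, at 7.73 ± 1.81, 7.603 ± 1.73 and 7.56 ± 0.44, closed it and did not differ beyond their spread. Among sterol genes, those called higher did not have the highest levels in control, since Fdps and Sqle stood above all of them.

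Neighbouring genes of lipid metabolism were read from lists made alongside the 33. Among genes of sterol storage and transport, the lowest value was that of Stard5, a sterol carrier, which fell from 15.6 ± 1.66 to 2.30 ± 0.288 scaled FPKM (log2 fold change -2.71). Gramd1b, which moves cholesterol from the plasma membrane to the endoplasmic reticulum, had -1.62. Both were called lower under all 4 scalings. Gramd1c was higher, but its control libraries were near 0, from 0.00436 to 0.0374 scaled FPKM, against 0.0918 to 0.449 in Al, and it was not called for TPM.

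The liver X receptors and genes of sterol efflux and oxysterol synthesis gave 2 higher (25.0%) and 4 lower (50%) of the 8 tested, against 25.5% and 23.7% of all genes, and 4 more of the list of 12 were under the filter. For deposited FPKM and for TPM 1 was higher and 5 were lower, where 5321 and 6734 of all 12889 genes were lower. The 4 lower were Nr1h2, Abca1, Mylip and Cyp46a1. Nr1h2, which encodes a liver X receptor and was named after its values were seen, had 31.5, 34.3 and 32.95 scaled FPKM in control and 15.6, 15.9 and 20.8 in Al, a log2 fold change of -0.93, and was called lower under all 4 scalings. Abca1, the exporter that loads apolipoproteins with cholesterol, had 8.41, 7.73 and 4.38 in control and 1.01, 0.911 and 2.86 in Al. Mylip, a ubiquitin ligase induced by liver X receptors, had 26.4, 25.5 and 16.6 in control and 10.6, 9.57 and 12.7 in Al. In Abca1 and Mylip the third control library was the lowest of control, and the groups still did not overlap. The log2 fold changes were -2.16 ± 0.41 and -1.03 ± 0.19 (adjusted P = 0.00190 and 0.00148). Abcg4, an exporter of the same class, had 0.276 scaled FPKM in control and 1.08 in Al, a log2 fold change of 1.65. Cyp46a1, the brain enzyme that turns cholesterol into a hydroxysterol for export, was called lower at levels of 0.146 to 0.453 in control, with 2 Al libraries at 0.

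The machinery of SREBP processing and sterol-regulated degradation gave 3 higher and 3 lower of 13 tested (23.1% each), close to the background. For deposited FPKM and TPM 0 were higher and 5 and 9 lower, where 5321 and 6734 of all 12889 genes were lower. Paqr3, which anchors SCAP at the Golgi, fell from 7.59 to 2.22 scaled FPKM (log2 fold change -1.74 ± 0.16). Erlin2, a membrane protein that binds SCAP and INSIG, and Mbtps2, the protease that makes the second cut in SREBPs, had -1.16 and -1.12. Rnf139, a ubiquitin ligase of the same membrane, had 0.96, and was not called for deposited FPKM (0.48) or TPM (0.18). Spring1 had no row under that symbol. Of 16 genes that use isoprenoids for other products, 4 were higher and 4 lower (25.0% each), again close to the 25.5% and 23.7% of all genes. For deposited FPKM and TPM these counts were 2 and 1 higher and 6 and 8 lower, beside the same 5321 and 6734 lower among all genes. Rabggtb, a subunit of the enzyme that prenylates Rab proteins, rose by 1.80 ± 0.12, and Dolk, the dolichol kinase, by 1.25 ± 0.12, a call that was lost for TPM (0.47). Dhdds, a subunit of the enzyme that builds dolichol, and Fnta, the shared subunit of protein farnesyltransferase, had -0.83 and -0.75.

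Other genes of fatty acid synthesis, elongation and desaturation gave 4 higher (19.0%) and 9 lower (42.9%) of 21 tested, against 25.5% and 23.7% of all genes, with 5 more of the list under the filter, and a median of -0.27. For deposited FPKM and TPM 0 were higher and 12 and 13 lower, and after quantile normalization 2 were higher and 9 lower. Of all 12889 genes, 5321, 6734 and 3009 were lower under these scalings. The lowest was Mcat, which serves mitochondrial fatty acid synthesis, at -1.51 ± 0.12 on the log2 scale. Acsl1, an acyl-CoA synthetase, Hacd2, a dehydratase of the elongation cycle, and Slc25a1, the mitochondrial citrate carrier, had -1.17, -1.16 and -1.13. All 4 were called lower under all 4 scalings. Of 12 tested genes of glycerolipids and lipid droplets, 1 was higher (8.33%) and 4 lower (33.3%), against the same shares of all genes. The higher gene, Agpat3, named after its values were seen, lost its call under the other 3 scalings. There 5, 9 and 3 genes were lower for deposited FPKM, TPM and quantile normalization, beside the counts of all genes given above. Plin3, a coat protein of lipid droplets, had 38.3, 38.0 and 35.5 scaled FPKM in control and 4.59, 4.57 and 7.77 in Al, a log2 fold change of -2.75 ± 0.19 (adjusted P = 1.42e-05). Lpin3, a phosphatidate phosphatase, Pnpla2, the lipase that opens triglyceride breakdown, and Gpam, the mitochondrial acyltransferase that starts glycerolipid synthesis, had -1.15, -0.86 and -0.71, and Gpam was not called after quantile normalization (-0.56).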

How the data were processed

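RNA of 6 input libraries, 3 control and 3 Al, was analysed. Per the labels and the paper, the authors trimmed reads (the paper names Trimmomatic and SortMeRNA, the submitters' processing notes fastp), aligned them with HISAT2 and deposited FPKM per gene symbol. The paper names GRCm38/mm10 and the notes GRCm39 and HTSeq; the annotation behind the FPKM is not given in the sources used here, so positions come from GENCODE and RefSeq on GRCm38 and may differ from the authors' gene models.

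Whole reads were recovered from the FPKM steps for 17688 of 17688 genes above 0 (relative tolerance 1e-06). A recovered number fits the FPKM but need not be the true count. On simulated counts the recovered reads were exact for 97.9% of 17227 genes. FPKM was divided by median-of-ratios size factors (1.17 to 1.20 in control, 0.799 to 0.929 in Al), and log2(value + 0.1) of the 12889 genes with a mean of at least 0.1 was tested with limma 3.58.1 (lmFit, eBayes with trend) in R 4.3.3, with Benjamini-Hochberg adjustment. With 3 against 3 libraries an exact two-sided permutation test cannot go below 0.1. On simulated counts of 12902 genes, 100% of 200 genes given a log2 change of 2 were recovered. That change was larger than any in the main gene list, where values ran from -1.52 to 1.66. In the data 49.2% of genes were called, a far larger share than was changed in the simulation. The recovery therefore cannot tell how well changes near the threshold of 0.58 are found, or which scaling is right. Similar transcripts were searched with minimap2 at 90% identity and 20% of the length. Intervals of limma cover the spread between libraries.

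The 33 genes and all lists were chosen with earlier results of these data known. The genes named from a list were the called ones with the largest absolute log2 fold change, up to 4 a list, besides the genes that share exons or sequence with the 33, which were named after their values were seen. Some genes of these lists, and the counts that rest on them, are not reported here.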

Additional observations from a re-analysis of the deposited data

How the results depend on the processing

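The results were recomputed under 18 other settings. Scaling moved them most. For FPKM as deposited, TPM and quantile normalization, 5, 4 and 6 sterol genes were called higher and 3, 6 and 1 lower, 0 fatty acid genes were higher and 4, 5 and 5 lower, and 1, 0 and 1 regulator and transport genes were higher. The sterol median was 0.039, -0.26 and 0.18, and the fatty acid median -0.52, -0.82 and -0.71. The sign turned for FPKM as deposited in Pmvk (-0.48), Mvd (-0.38), Sqle (-0.16), Lss (-0.028), Ebp (-0.45), Acly (-0.090), Elovl6 (-0.063), Scd1 (-0.026), Scd2 (-0.022), Scap (-0.28) and Stard4 (-0.12). For TPM it turned in Pmvk (-0.78), Mvd (-0.68), Fdps (-0.26), Sqle (-0.46), Lss (-0.33), Nsdhl (-0.26), Ebp (-0.75), Acly (-0.39), Elovl6 (-0.36), Scd1 (-0.33), Scd2 (-0.32), Srebf2 (-0.20), Scap (-0.57) and Stard4 (-0.42). After quantile normalization it turned in Pmvk (-0.11), Mvd (-0.23), Fdps (-0.24), Sqle (-0.34), Ebp (-0.24), Acly (-0.20), Scd1 (-0.062), Scd2 (-0.71) and Srebf2 (-0.047). With limma-voom on the recovered reads Pmvk took -0.0029, and no other gene changed its call or sign there. Deposited FPKM and TPM moved the median of all genes too, to -0.43 and -0.72, with 1736 and 1141 genes called higher (3291 after median-of-ratios scaling) and 5321 and 6734 lower (3053), and beyond that the cause was not tested. After quantile normalization 2777 of all genes were higher and 3009 lower.

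A pseudocount of 0.01 added 1 lower sterol gene, Tm7sf2. A limit of 1 on the absolute log2 fold change left 6 higher sterol genes (without Acat2 and Sc5d), 0 lower fatty acid genes, 1 higher regulator or transport gene and 1 lower. Leaving out a single library gave 0 to 1 lower sterol genes and 1 to 2 higher regulator or transport genes, through Tm7sf2 (without control library 3 or Al library 1 or 3) and Srebf2 (without control library 2 or 3). In those runs the sign of Pmvk (-0.082 to 0.14), Ebp (-0.13 to 0.21), Acaca (-0.12 to 0.043) and Fasn (-0.42 to 0.018) turned. The other counts, the medians and the gap kept their value or moved by less than the spread between replicates there, with 8 higher sterol genes and 2 lower fatty acid genes each time and a gap within a library of 0.23 to 0.34, though the fatty acid median, near 0, took both signs (-0.12 to 0.043).

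Libraries with the same number did not deviate together (correlations of -0.03, -0.03 and -0.07 between control and Al deviations from the group means), so the numbers were not taken as pairs. With the replicate number as a block, 8 sterol genes were higher and 0 lower, 0 fatty acid genes were higher and 2 lower, and 2 regulator and transport genes were higher and 2 lower, as without the block, with 3248 genes higher and 3007 lower among all genes. The block changed no call of the 33 genes. With 3 libraries a group, a change whose interval holds 0 could not be told from 0, and counts of genes with copies or shared exons remain uncertain.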
